A study of Mus musculus with 78 samples.

Results

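Immediate early genes are the first genes that neurons transcribe after a burst of activity, and their transcripts appear and decay quickly. The 10 genes described here were Fos, Fosb and Junb, which encode subunits of the AP-1 transcription factor, Egr1, Egr2 and Egr3, which encode zinc finger transcription factors, Npas4 and Nr4a1, which encode an activity-induced bHLH-PAS factor and an orphan nuclear receptor, Arc, which encodes a protein that acts on AMPA receptor endocytosis at synapses, and Dusp1, which encodes a phosphatase that switches off MAP kinases. They were chosen by name, as every probe of the array annotated to them, which gave 14 of 46643 probes and 10 of 19406 named genes. In neurons these genes are switched on by calcium and MAP kinase signalling that acts on CREB, SRF and other factors bound before the start of transcription. Fos and Arc transcripts are widely used as markers of recently active neurons in the amygdala, the cortex and the hippocampus.

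RNA came from male mice of 3 lines bred from CD-1 stock and selected on the elevated plus maze, HAB mice for much anxiety-related behavior, LAB mice for little, and NAB mice for an intermediate amount. The mice were 10 weeks old and were decapitated under anesthesia some days after a tail suspension test. One Illumina MouseWG-6 v1.1 bead array was run for each mouse and region. Tissue was laser-microdissected from the anterior cingulate cortex (Cg), the central nucleus of the amygdala (CeA), the paraventricular nucleus of the hypothalamus (PVN), the basolateral amygdala (BLA) and the dentate gyrus (DG). For HAB, NAB and LAB mice in that order, the Cg had 5, 6 and 6 arrays, the CeA 6, 6 and 5, the PVN 6, 5 and 5, the BLA 5, 6 and 5, and the DG 3 of each line, which makes 75 arrays. The lines were bred selectively, so a difference between them cannot be tied to a single allele. The values are normalised intensities, given below as log2 levels unless stated otherwise, and a level of one probe cannot be set against that of another. The background of an array, the 95th percentile of its 1305 probes for olfactory and pheromone receptor genes, lay at an intensity between 6.99 and 10.6.

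Dissections of the PVN, the DG and the CeA each carried a marker of their own, and none is given for the Cg. Mean intensity of the hormone gene Oxt was 1592 in the PVN and at most 7.31 elsewhere, that of the granule neuron factor Prox1 was 151 in the DG and at most 24.2 elsewhere, and that of the kinase gene Prkcd was 100 in the CeA and at most 27.3 elsewhere. Gad1, which is on the same marker list as Prkcd, was not highest in the CeA, with 272 there and 326 in the DG. Slc17a7, which encodes the vesicular glutamate transporter of cortical and basolateral neurons, had mean intensities of 265 in the Cg, 481 in the BLA, 302 in the DG, 46.4 in the CeA and 11.4 in the PVN. In the CeA it ran from 7.50 to 162, and in the PVN 2 arrays, of HAB mouse 09 and NAB mouse 04, stood at 50.005 and 61.214 whereas the other 14 lay between 2.63 and 15.2. Each region was hybridised on its own, so that region and hybridisation batch cannot be told apart. Fewer cells of a type and less RNA per cell cannot be told apart in such tissue.

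The stretches just before the start of 4 of the genes are shown because the shared letters of CREB sites recur in them. RefSeq windows (GRCm38.p6) were matched for 7 of the 10 genes, not for Arc, Egr1 and Egr3. Capitals mark TGACGTCA, which is the full cAMP response element, its core TGACG, and TATAAA, on either strand, and each line ends at the base before the annotated start. The windows are chr12:85473740-85473889 (plus strand) for Fos, chr17:26508473-26508622 (minus strand) for Dusp1, chr8:84978749-84978898 (minus strand) for Junb and chr19:4989972-4990171 (minus strand) for Npas4.
Fos: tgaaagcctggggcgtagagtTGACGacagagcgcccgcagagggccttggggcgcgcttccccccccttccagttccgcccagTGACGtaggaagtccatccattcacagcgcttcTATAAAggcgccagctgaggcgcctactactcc
Dusp1: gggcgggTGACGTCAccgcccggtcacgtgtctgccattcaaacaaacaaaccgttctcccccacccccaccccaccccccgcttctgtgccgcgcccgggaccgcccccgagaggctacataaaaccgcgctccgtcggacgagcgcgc
Junb: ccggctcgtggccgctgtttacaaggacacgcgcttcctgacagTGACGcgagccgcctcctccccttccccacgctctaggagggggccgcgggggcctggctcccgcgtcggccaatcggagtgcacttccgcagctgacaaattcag
Npas4: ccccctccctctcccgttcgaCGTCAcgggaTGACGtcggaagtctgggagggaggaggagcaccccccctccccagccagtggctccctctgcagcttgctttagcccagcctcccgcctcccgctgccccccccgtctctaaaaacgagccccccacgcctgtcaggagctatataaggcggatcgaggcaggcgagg
In windows from 250 bases before to 50 after the start, the full element was found in Dusp1 alone of the 7 genes, 143 bases before its start, and in 1.79% of 32851 windows of all genes. The core TGACG outside a full element was found in all 7 genes (Fos, Fosb, Junb, Egr2, Nr4a1, Npas4 and Dusp1) and in 19.5% of windows of all genes. Fos held it 129 and 66 bases before its start, Junb 106, Fosb 60 and Npas4 169 and 179. TATAAA was found in Fos, 33 bases before the start, and in Junb, against 13.6% of windows. That of Junb begins at the annotated start, so it lies outside the line shown. A gene with several windows was counted if any of them held the motif, whereas the shares are of single windows. The CArG box, the site of SRF, was found in Egr2 (1.63% of windows), the EGR site GCGNGGGCG in Fosb and Nr4a1 (5.55%), and the AP-1 site TGANTCA in none of the 7 (7.81%). These are matches of letters on both strands, not binding sites that were measured.

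Of the 14 probes, 10 probes of 8 genes were bright enough to be tested in at least 1 region, and Egr2 and Nr4a1 were not tested at all. The filter asked for a signal over background in no fewer arrays of the region than its smallest line had. The Egr2 probe lay above background in 4 of 17 Cg arrays, in 1 CeA array and in 1 BLA array, with a mean intensity of 6.28 in the Cg and 3.01 in the PVN. The Nr4a1 probe lay above background in 1 BLA array, and a further probe each for Junb (106370025) and Npas4 (4150154) in 0 of 75 arrays. In the regions tested the Arc, Dusp1 and Egr1 probes and one Fosb probe (100730706) lay above background in 75 of 75 arrays. The second Fosb probe (1940142) did so in 15 of 16 BLA arrays, 8 of 9 DG arrays, 8 of 17 Cg arrays, 5 of 17 CeA arrays and 1 of 16 PVN arrays, and Npas4 in 16 of 17 Cg arrays but 1 of 16 PVN arrays. Fosb 1940142 and Npas4 were therefore not compared between lines in the PVN. Of the Egr3 probes, 100870035 was bright in every region but the PVN, whereas 6940128 stayed near background everywhere, with region means of the intensity between 8.24 and 10.6. Which exon or UTR each probe matches was not determined here, because the probe sequences are not in the tables used.

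Egr1 was highest in the Cg (7.57 ± 0.23, SD, n = 17), followed by the BLA (7.35 ± 0.34, n = 16), the CeA (6.94 ± 0.32, n = 17), the DG (6.59 ± 0.17, n = 9) and the PVN (5.67 ± 0.44, n = 16). Arc was likewise highest in the Cg and lowest in the PVN, with 6.30 ± 0.52 in the Cg, 5.99 ± 0.31 in the DG, 5.87 ± 0.58 in the BLA, 5.20 ± 0.22 in the CeA and 4.41 ± 0.29 in the PVN. Fos was highest in the Cg (4.76 ± 0.53) and BLA (4.52 ± 0.65), with 4.24 ± 0.38 in the PVN, 4.23 ± 0.59 in the DG and 3.94 ± 0.48 in the CeA. For all 3 genes the ranges of neighbours in that order overlapped.
Npas4 stood at 3.88 ± 0.55 in the Cg, 3.62 ± 0.56 in the BLA, 3.33 ± 0.41 in the CeA, 3.05 ± 0.49 in the DG and 2.58 ± 0.33 in the PVN, again with overlap between neighbours. Dusp1 ran from 6.70 ± 0.29 in the Cg through 6.39 ± 0.36 in the BLA, 6.16 ± 0.17 in the PVN and 6.06 ± 0.18 in the CeA to 5.25 ± 0.20 in the DG. Every CeA array lay above every DG array for Dusp1, and the other neighbours overlapped.
Junb stood at 6.13 ± 0.31 in the BLA, 5.95 ± 0.32 in the CeA, 5.77 ± 0.22 in the DG, 5.75 ± 0.35 in the Cg and 4.23 ± 0.40 in the PVN. All PVN arrays lay below all Cg arrays for Junb. The Fosb probe 100730706 was highest in the DG (5.26 ± 0.28), where every array lay above every BLA array (4.40 ± 0.28), and stood at 4.39 ± 0.18 in the PVN, 4.11 ± 0.30 in the CeA and 3.91 ± 0.20 in the Cg. The other Fosb probe, dim outside the BLA and DG, ran in another order, with 3.94 ± 0.51 in the BLA, 3.66 ± 0.42 in the DG, 3.06 ± 0.49 for the Cg, 2.85 ± 0.55 in the CeA and only 1.93 ± 0.55 in the PVN.
Egr3 had the widest spread of the genes over regions. Its bright probe reached 8.16 ± 0.13 in the DG, 7.69 ± 0.18 in the BLA, 7.55 ± 0.22 in the Cg and 7.26 ± 0.32 in the CeA, but 3.59 ± 0.84 in the PVN, where it lay above background in 13 of 16 arrays. All PVN arrays lay below all CeA arrays. The dim Egr3 probe differed little, with means of 3.39 (Cg), 3.34 (CeA), 3.32 (BLA), 3.28 (PVN) and 3.03 (DG).

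**Figure D1:**
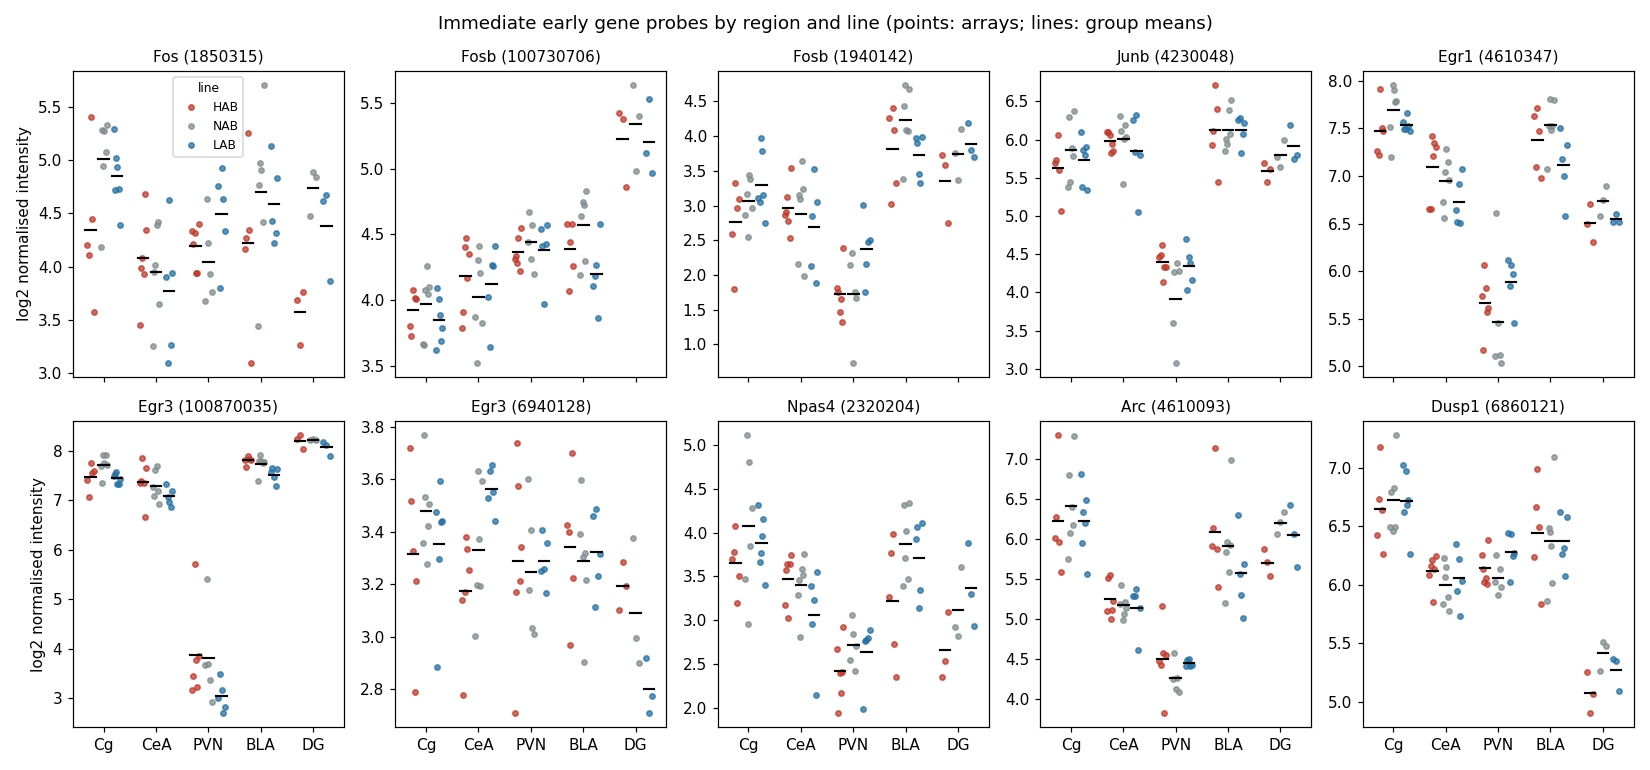
Log2 intensity of the 10 tested probes, 1 panel a probe, by region and by line (points are arrays, colours are lines, bars are group means). Egr3 100870035 is low in the PVN, Fosb 100730706 is highest and Dusp1 lowest in the DG, and within a region the 3 lines overlap for most probes.

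In a joint limma fit of the 15 groups, each region was set against the mean of the other 4. A probe was called past an adjusted p of 0.05, with Benjamini-Hochberg adjustment over 22083 probes. In the Cg 8 of 10 probes were called, 7 higher and 1 lower, where 65.8% of all probes were called. Egr1 (+0.93, SE 0.09, adjusted p = 6.80e-15), Arc (+0.93, SE 0.11), Egr3 100870035 (+0.88), Npas4 (+0.73), Dusp1 (+0.73) and Fos (+0.51, adjusted p = 0.000646) were higher there, and Fosb 100730706 was lower (-0.62). Junb was higher by 0.23 (adjusted p = 0.0257), a call that was lost when 16 was added to each intensity, under median centring and without NAB mouse 04. Its mean level in the Cg (5.75) lay above that of the PVN alone (4.23). That of Egr3 100870035 in the Cg (7.55) lay below those of the DG (8.16) and the BLA (7.69). The mean of the other regions holds the PVN, where this probe stood at 3.59. Npas4 lay above background in 1 of 16 PVN arrays, so its difference is no exact size and ran from 0.30 to 0.79 over settings. The median difference over the 10 probes was 0.62, beside -0.09 over all probes.
In the BLA 7 of 10 probes were called, all higher, where 56.3% of all probes were called. They were Fosb 1940142 (+1.05), Egr3 100870035 (+1.05), Junb (+0.71), Egr1 (+0.65), Npas4 (+0.40), Arc (+0.39) and Dusp1 (+0.35), whereas the Fos difference (+0.22, adjusted p = 0.165) was not called. Fosb 1940142 and Npas4 each lay above background in 1 of 16 PVN arrays, and the former in 5 of 17 CeA arrays. Their BLA differences are therefore no exact size. Over settings they ran from 0.40 to 1.11 and from 0.15 to 0.54. The mean level of Egr3 100870035 in the BLA (7.69) lay below that of the DG (8.16) and near that of the Cg (7.55), with the PVN at 3.59. Arc in the BLA (5.87) lay below the Cg (6.30) and the DG (5.99).
In the PVN 6 of 10 probes were called, all lower, where 61.7% of all probes were called. Egr3 100870035 was lower (log2 difference -4.09, SE 0.12), Junb was lower by 1.68, and Egr1 and Arc were each lower by 1.43 on the log2 scale (log2 differences -1.68, -1.43 and -1.43). Fosb 1940142 (-1.42) and Npas4 (-0.87) were the other 2, but each lay above background in 1 of 16 PVN arrays and entered the joint fit through other regions, so that their measured differences are no exact size, and over settings they ran from -1.48 to -0.43 and from -0.90 to -0.31. The Fos (-0.11, adjusted p = 0.496), Dusp1 (+0.06, adjusted p = 0.475) and Fosb 100730706 (-0.02, adjusted p = 0.822) differences were not called. Over 31 alternative settings the Egr3 difference ran from -4.34 to -2.92, and each called it, but its PVN level lay near background, so the size is no exact fold.
In the DG 8 of 10 probes were called, where 70.8% of all probes were called. Egr3 100870035 (+1.65), Fosb 100730706 (+1.06), Fosb 1940142 (+0.72) and Arc (+0.55, a call lost under quantile normalisation) were higher, and Dusp1 (-1.07), the dim Egr3 probe (-0.31) and Egr1 (-0.28, called in 29 of 31 settings) were lower. The Fosb 1940142 difference, set against regions where that probe was mostly dim, is no exact size and ran from 0.23 to 0.81 over settings. Junb was higher by 0.26 (adjusted p = 0.0434), but only 18 of 31 alternative settings called it and 1 turned its sign (-0.01). Its mean level in the DG (5.77) lay below those of the BLA (6.13) and the CeA (5.95), and above that of the PVN (4.23).
In the CeA 6 of 10 probes were called, where 58.9% of all probes were called. Egr3 100870035 (+0.51) and Junb (+0.48) were higher, and Fos (-0.50, adjusted p = 0.000976), Arc (-0.45), Fosb 100730706 (-0.38) and Fosb 1940142 (-0.30, adjusted p = 0.0469, called in 17 of 31 settings) were lower. The mean level of that Egr3 probe in the CeA (7.26) lay above that of the PVN alone (3.59). Fosb 1940142 lay above background in 5 of 17 CeA arrays, so its difference is no exact size. The median over the 10 probes was -0.02 for the CeA, -1.14 for the PVN, 0.39 for the BLA and 0.07 for the DG, beside -0.09, -0.01, 0.01 and 0.06 over all probes. With 10 probes, counts of 6 to 8 are near what the shares over all probes give, so the counts themselves are no result about these genes.

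In the PVN the low level of Egr3 had 2 exceptions. The bright Egr3 probe stood at 5.72 in HAB mouse 09 and 5.40 in NAB mouse 04 and between 2.70 and 3.86 in the other 14 arrays, whose mean intensity was 10.2 ± 2.57, near background. These are the same 2 arrays whose Slc17a7 intensities were 50.005 and 61.214. Across the 16 PVN arrays the log2 levels of Egr3 and Slc17a7 correlated at 0.86, and across the other 14 at 0.25. Arc correlated with Slc17a7 at 0.59 over 16 arrays and 0.14 over 14, and Egr1 at 0.57 and 0.10. Arc was highest of the PVN arrays in HAB mouse 09 (5.17) and Egr1 in NAB mouse 04 (6.61). The arrays share a batch and a tissue, and the part of neighbouring glutamatergic tissue in these values was not tested.

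**Figure D2:**
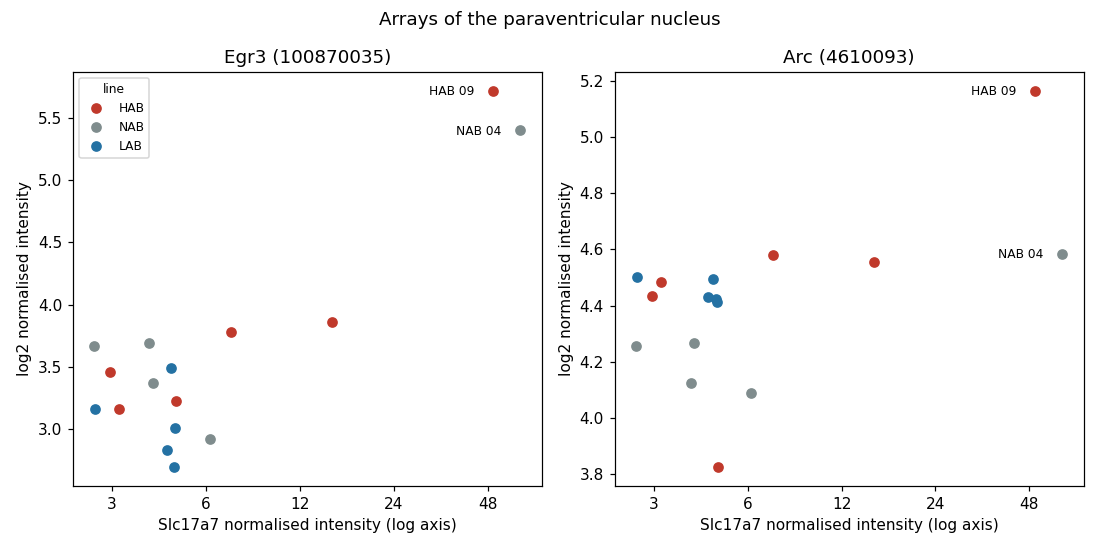
Log2 level of Egr3 100870035 and Arc (y axes, 1 panel each) against the intensity of Slc17a7 (x axes, log scale) in the 16 PVN arrays, coloured by line. The 2 arrays with Slc17a7 at 50.005 and 61.214 hold the 2 highest Egr3 levels, 5.72 and 5.40.

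In the CeA no probe of the 10 was called between any of the lines. The limma fit inside the CeA called 0 of 10 in HAB vs. LAB mice (2.22% of 17974 probes called), 0 in HAB vs. NAB mice (2.06%) and 0 in NAB vs. LAB mice (2.63%). At an unadjusted p under 0.05 the counts were 2, 0 and 0, and the lowest adjusted p were 0.161, 0.656 and 0.367. In HAB vs. LAB mice 9 of 10 differences were positive, with a median of 0.20 beside -0.01 over all probes tested. The probes share arrays and move together, so these 9 are not 9 separate observations.
Egr1, the zinc finger factor also known as Zif268, had its lowest, median and highest level at 6.65, 7.26 and 7.42 in HAB mice and at 6.56, 7.00 and 7.28 in NAB mice, and stood at 6.51, 6.51, 6.64, 6.91 and 7.08 in the 5 LAB mice. The lines overlapped, and the HAB minus LAB difference was 0.36 (95% CI 0.01 to 0.72, adjusted p = 0.502 by limma). The bright Egr3 probe stood at 6.67, 7.36 and 7.85 in HAB mice, at 6.93, 7.23 and 7.69 in NAB mice and at 6.86, 6.96, 7.07, 7.18 and 7.32 in the LAB mice. The lowest CeA array for Egr3 was an HAB one, and the HAB minus LAB difference of 0.30 (95% CI -0.08 to 0.67) had an adjusted p of 0.694.
Npas4, which drives genes for inhibitory synapses, stood at 3.03, 3.61 and 3.75 in HAB mice, at 2.81, 3.49 and 3.76 in NAB mice and at 2.15, 2.96, 3.23, 3.39 and 3.55 in the LAB mice. The single low LAB array lay outside the range of the other lines, and the difference was 0.41 (95% CI -0.06 to 0.88, adjusted p = 0.607). Fos stood at 3.45, 4.03 and 4.69 in HAB mice, at 3.25, 3.99 and 4.42 in NAB mice and at 3.10, 3.27, 3.90, 3.94 and 4.63 in the LAB mice. Its groups overlapped almost wholly, with a difference of 0.31 (95% CI -0.25 to 0.88, adjusted p = 0.858).
Arc stood at 5.00, 5.18 and 5.55 in HAB mice, at 4.99, 5.17 and 5.43 in NAB mice and at 4.62, 5.15, 5.29, 5.29 and 5.38 in the LAB mice, a difference of 0.11 (95% CI -0.18 to 0.40). Junb stood at 5.05, 5.80, 5.84, 6.26 and 6.32 in the LAB mice and between 5.83 and 6.10 in HAB mice, a difference of 0.13 (95% CI -0.28 to 0.53). Dusp1 differed by 0.06 (95% CI -0.19 to 0.30), Fosb 100730706 by 0.06 and Fosb 1940142 by 0.27. The LAB arrays spanned the HAB range for Junb, and overlap was likewise near complete for Arc and Dusp1.
The dim Egr3 probe was the one whose HAB and LAB arrays did not overlap in the CeA, in the direction opposite to the other 9. It lay between 2.78 and 3.38 in HAB mice (median 3.21), between 3.00 and 3.63 in NAB mice, and at 3.44, 3.53, 3.55, 3.63 and 3.66 in the LAB mice. The difference was -0.39 (95% CI -0.65 to -0.13, adjusted p = 0.161), and -0.15 with 16 added before the log2. Its sign is opposite to that of the bright Egr3 probe, and the levels lie close to background. In the DG the HAB minus LAB difference of the dim probe was 0.39, opposite in sign to that in the CeA. How many of all probes tested have HAB and LAB arrays that do not overlap was not counted.
HAB vs. NAB differences in the CeA lay between -0.16 and 0.16 (8 of 10 positive), and NAB vs. LAB differences between -0.23 and 0.35 (7 of 10 positive). Over the 30 comparisons the widest 95% intervals reached from -0.65 to 0.93 on the log2 scale, with 5 or 6 arrays a line.

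**Figure D3:**
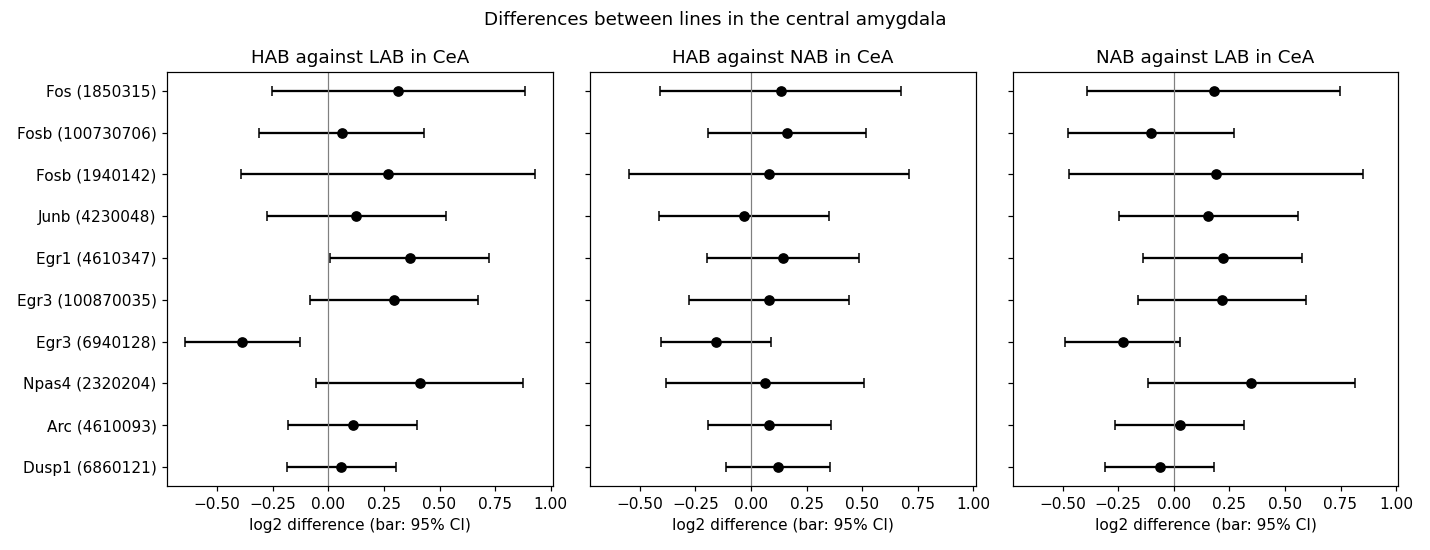
Differences between lines in the CeA for the 10 probes (points, log2 scale, first line minus second, 1 panel a comparison) with 95% confidence intervals. No adjusted p passed 0.05, and the HAB vs. LAB intervals of Egr1 and of the dim Egr3 probe 6940128 exclude 0.

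A glutamatergic marker varied among the CeA dissections. Slc17a7 intensities had their lowest, median and highest value at 29.7, 54.2 and 162 in HAB mice, 12.4, 42.4 and 68.7 in NAB mice and 7.50, 16.5 and 46.5 in LAB mice, so HAB and LAB mice overlapped in part. The list of 12 markers of basolateral and cortical glutamatergic neurons, 10 of them tested with 15 probes, had a median HAB minus LAB difference of 0.22 with 0 probes called, and its summed intensity ran from 802 to 1160 in HAB mice, 706 to 887 in NAB mice and 670 to 876 in LAB mice. Across the 17 CeA arrays the log2 level of Slc17a7 correlated with the bright Egr3 probe at 0.36, Arc at 0.28, Npas4 at 0.26, Fos at -0.22 and Egr1 at -0.02. With the Slc17a7 level as a covariate, chosen after the values had been seen, the HAB minus LAB difference was 0.60 for Egr1 (adjusted p = 0.285), 0.74 for Fos (adjusted p = 0.494), 0.40 for Npas4, 0.20 for Egr3 100870035 and -0.40 for Egr3 6940128. No probe was called in that fit, and the unadjusted count was 3.
Summed red cell markers in the CeA ran from 1878 to 4167 in HAB mice, 1366 to 1798 in NAB mice and 1076 to 2124 in LAB mice, with 3 of 12 probes, all of Hbb-bs, higher in HAB mice than in both other lines. Summed microglial markers ran from 173 to 219, 145 to 203 and 199 to 255. Of their 7 probes 3 were lower in NAB than in LAB mice (Tmem119 -0.63, C1qb -0.57 and Tyrobp), Tyrobp was also lower in NAB than in HAB mice, and C1qb was lower in HAB than in LAB mice (-0.65). Tyrobp lay above background in 0 of 6 NAB, 4 of 6 HAB and 4 of 5 LAB arrays, so no size is given for it. Of 15 astrocyte probes 2, both of the glutamate transporter gene Slc1a2, were higher in HAB than in LAB mice (+0.39 and +2.07), 1 of these was higher in HAB than in NAB mice (+0.55), and Aldoc was lower in NAB than in LAB mice (-0.51). Of 9 endothelial probes Ly6c1 was lower in NAB than in LAB mice (-0.46). Of 5 hypothalamic probes that of the hormone gene Ghrh was lower in HAB than in LAB and NAB mice, with 0 of 6 HAB arrays above background and all of the other 11, so that no size is given. Summed markers of central amygdala and striatal neurons ran from 1861 to 2536, 1480 to 2416 and 1994 to 2943, and 1 of 19 probes (Pde10a) was lower in HAB than in NAB mice (-0.55). In the lists of granule neurons, oligodendrocytes and all neurons 0 probes were called. Summed markers of all neurons overlapped widely (2633 to 3222, 2623 to 3306 and 2868 to 3409). The part of these cell types in the member differences was not tested.

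In the other regions the 10 probes (8 in the PVN) were not called between lines either. In HAB vs. LAB mice the counts were 0 in the Cg (2.47% of all probes called), 0 in the PVN (2.09%), 0 in the BLA (2.25%) and 0 in the DG (0.761%). In HAB vs. NAB mice they were 0 in the Cg (2.13%), 0 in the PVN (1.71%), 0 in the BLA (3.05%) and 0 in the DG (0.659%). In NAB vs. LAB mice they were 0 in the Cg (2.51%), 0 in the PVN (1.69%), 0 in the BLA (3.39%) and 0 in the DG (0.627%). At an unadjusted p under 0.05 limma gave, for HAB vs. LAB, HAB vs. NAB and NAB vs. LAB mice, 1, 2 and 1 probes for the Cg, 0, 1 and 1 for the PVN, 1, 1 and 3 for the BLA and 3, 3 and 0 for the DG.
The widest gap between lines was that of Fos in the DG. Fos stood at 3.26, 3.69 and 3.76 in the 3 HAB mice, at 4.48, 4.84 and 4.89 in the 3 NAB mice and at 3.87, 4.61 and 4.68 in the 3 LAB mice. The HAB arrays lay below all others, by 1.17 on average against NAB mice (log2 difference -1.17, 95% CI -1.72 to -0.61, adjusted p = 0.123 by limma) and by 0.81 against LAB mice (log2 difference -0.81, adjusted p = 0.342). With array weights (adjusted p = 0.0117) or without LAB mouse 16 (adjusted p = 0.0458) the HAB vs. NAB difference was called. It was not called in the rest of the 7 settings and 9 fits that left out a mouse. The DG arrays of HAB mice 05 and 09 and of LAB mouse 06 held no values. For Fos, HAB mouse 09 lay above its group mean by 1.06 in the Cg and 1.03 in the BLA. Arc (-0.50) and Dusp1 (-0.34) also lay lower in all 3 HAB than in all 3 NAB mice in the DG, with adjusted p of 0.694 and 0.707. For Dusp1 the highest HAB level was 5.25 and the lowest NAB level 5.26. Junb lay lower in all 3 HAB than in all 3 LAB mice (highest HAB level 5.69, lowest LAB level 5.74). The dim Egr3 probe lay higher, at 3.10 to 3.28 in HAB mice and 2.71 to 2.92 in LAB mice (log2 difference 0.39). How many of all probes have lines that do not overlap was not counted here or in the other regions, so separation with so few arrays is no result by itself.
In the Cg the HAB minus NAB difference of Fos was not called (log2 difference -0.67, 95% CI -1.21 to -0.13, adjusted p = 0.332). The lowest, median and highest Fos level was 4.19, 5.18 and 5.33 in NAB mice, 4.39, 4.83 and 5.29 in LAB mice and 3.57, 4.20 and 5.40 in HAB mice, so one HAB array was the highest of all. That array was of HAB mouse 09, and without this mouse the HAB vs. NAB difference was -0.93 (adjusted p = 0.0276). It was called in no other of 17 fits that left out a mouse and in none of 7 settings.
In the BLA the bright Egr3 probe lay between 7.67 and 7.90 in HAB mice and between 7.29 and 7.64 in LAB mice, with no overlap and a difference of 0.29 (adjusted p = 0.260). In NAB vs. LAB mice Egr1 (+0.42), Fosb 100730706 (+0.37) and Egr3 (+0.21) had adjusted p between 0.161 and 0.232, and Npas4 in HAB vs. NAB mice (-0.65) one of 0.229. With array weights the NAB vs. LAB differences of Fosb 100730706 (0.45, adjusted p = 0.0188) and Egr3 (0.25, adjusted p = 0.0350) were called, as was that of Egr3 without NAB mouse 02 (0.28, adjusted p = 0.0453). The rest of the 7 settings and 16 fits that left out a mouse called no member probe in this comparison. In the PVN Junb differed by 0.48 between HAB and NAB mice (adjusted p = 0.437). The NAB minus LAB difference of Egr1 there was -0.42 (adjusted p = 0.432), and it was called only without the 2 arrays of high Slc17a7 (-0.71, adjusted p = 0.0401).

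Averaged over the 5 regions in the joint fit, 0 of 10 probes were called in HAB vs. LAB mice (7.17% of all probes called), 0 in HAB vs. NAB mice (6.24%) and 0 in NAB vs. LAB mice (11.9%), with 2, 2 and 1 at an unadjusted p under 0.05 by limma. Fos stood at -0.40 in HAB vs. NAB mice (SE 0.14, adjusted p = 0.0779) and -0.33 in HAB vs. LAB mice (adjusted p = 0.197), the lower level being that of HAB mice. Without HAB mouse 09 both differences were called (-0.51, adjusted p = 0.00932, and -0.44, adjusted p = 0.0366), and without NAB mouse 02 the first was (-0.56, adjusted p = 0.00399). No other of the 21 fits that left out a mouse called either of them. Npas4 was at -0.35 in HAB vs. NAB mice (adjusted p = 0.110), and at -0.43 without NAB mouse 08 (adjusted p = 0.0265), the only fit to call it. The bright Egr3 probe was at +0.32 in HAB vs. LAB mice (adjusted p = 0.131) and +0.32 in NAB vs. LAB mice (adjusted p = 0.0725). Without the 2 PVN arrays of high Slc17a7, neither of which was from a LAB mouse, these were 0.24 (adjusted p = 0.0280) and 0.25 (adjusted p = 0.0167). With array weights they were 0.38 (adjusted p = 0.0196) and 0.42 (adjusted p = 0.0262), and the second was also called without HAB mouse 09 (0.32, adjusted p = 0.0188) and without NAB mouse 18 (0.39, adjusted p = 0.0232).
These p-values rest on 1 correlation between arrays of a mouse for all probes (0.0142), which lies below that of Fos (0.37) and Npas4 (0.32). In a fit chosen after the data had been seen, each probe was given its own correlation. Fos then stood at -0.38 in HAB vs. NAB mice (adjusted p = 0.303 by limma) and -0.26 in HAB vs. LAB mice (adjusted p = 0.508), and without HAB mouse 09 at -0.50 (adjusted p = 0.110) and -0.38 (adjusted p = 0.234). Without NAB mouse 02 the first was -0.50 (adjusted p = 0.0560), and Npas4 without NAB mouse 08 was at -0.40 (adjusted p = 0.164), so none of the Fos and Npas4 calls remained. The NAB vs. LAB difference of the bright Egr3 probe was 0.31 (adjusted p = 0.144). It was called without HAB mouse 09 (0.32, adjusted p = 0.0161) and without NAB mouse 18 (0.39, adjusted p = 0.0457), but not without the 2 PVN arrays of high Slc17a7 (0.24, adjusted p = 0.114), and neither was that of HAB vs. LAB mice (0.28, adjusted p = 0.102).
The HAB minus LAB difference in the CeA minus that in the other 4 regions was 0.80 for Fos (95% CI 0.15 to 1.46, adjusted p = 0.956 by limma), 0.82 for Npas4 (95% CI 0.21 to 1.43, adjusted p = 0.898) and -0.48 for the dim Egr3 probe (adjusted p = 0.735). For the dim Egr3 probe, the DG difference of 0.39 is among those set against the CeA. In this interaction 0 of 10 probes were called for HAB vs. LAB mice (0.0181% of all probes called), 0 for HAB vs. NAB mice (0.0272%) and 0 for NAB vs. LAB mice (0.0226%), with 4, 1 and 0 at an unadjusted p under 0.05.

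Mice of a line differed from each other in these genes, and the genes moved together. The spread within groups was an SD of 0.49 for Fos, 0.46 for Npas4, 0.42 for Arc, 0.42 for Egr3 100870035, 0.34 for Junb, 0.31 for Egr1, 0.26 for Dusp1, 0.50 for Fosb 1940142, 0.25 for Fosb 100730706 and 0.23 for Egr3 6940128 on the log2 scale, beside a median of 0.26 over all 22083 probes. After each array's deviation from its group mean was taken, Arc and Dusp1 correlated at 0.81 over the 75 arrays, Fos and Dusp1 at 0.80, Fos and Arc at 0.70, Junb and Arc at 0.67, Junb and Dusp1 at 0.65, Arc and Npas4 at 0.60, Egr1 and Egr3 100870035 at 0.60 and Fos and Egr1 at 0.58. Of 45 pairs of probes 38 had a positive correlation and 15 one over 0.5, with a median of 0.31, beside a median of 0.12 over pairs of all probes. The 2 Fosb probes correlated at 0.51 and the 2 Egr3 probes at 0.18. Points of a mouse share the animal and arrays share a hybridisation batch, so these are descriptions and not tests.
The mean of the members was taken over the 8 probes of 7 genes that passed the filter in every region. It leaves out Npas4 and Fosb 1940142, and for a probe set against it the probes of its own gene. With the mean of the other members, Fos correlated at 0.74, Arc at 0.74, Dusp1 at 0.71, Egr1 at 0.64, Npas4 at 0.53, Fosb 1940142 at 0.51, Junb at 0.47, Fosb 100730706 at 0.33 and Egr3 100870035 at 0.33, and Egr3 6940128 at -0.05. Without the 2 PVN arrays these were 0.79 for Fos, 0.74 for Arc, 0.81 for Dusp1, 0.57 for Egr1 and 0.23 for Egr3 100870035. The AP-1 gene Fos, the synaptic gene Arc and the phosphatase gene Dusp1 had the highest values with and without these arrays.

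**Figure D4:**
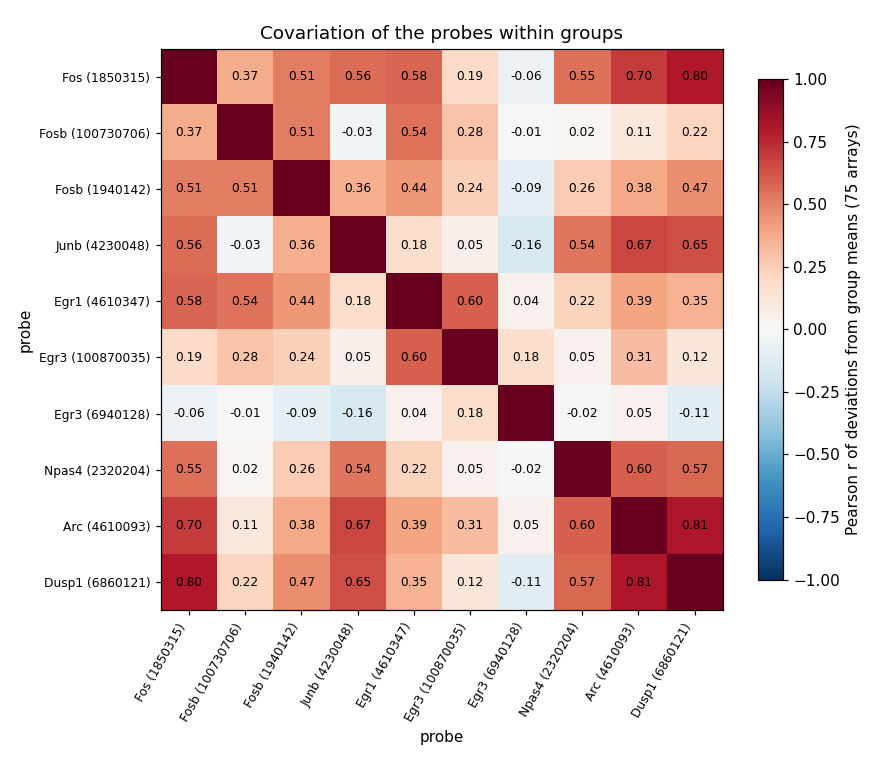
Correlation of the within-group deviations of the 10 probes over 75 arrays (colour scale from -1 to 1, both axes list the probes). Arc, Dusp1 and Fos form a block at 0.70 to 0.81, and Egr3 6940128 stands apart.

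Part of this variation followed the mouse from one region to another. The correlation between regions of the same mouse, as estimated with the mouse as a block, was 0.56 for Arc, 0.40 for Dusp1, 0.37 for Fos, 0.33 for Junb and 0.32 for Npas4, and the median over all probes was 0.00865. For Arc that was the 99.1 percentile of all probes. Egr1 stood at 0.16 and Egr3 100870035 at 0.17, which became 0.35 and 0.41 without the 2 PVN arrays. Fosb 100730706 stood at 0.15, Fosb 1940142 at 0.09 and Egr3 6940128 at -0.17, the 3.24 percentile of all probes.
Of the 10 pairs of regions, the Cg and the BLA had 5 of 10 probes over 0.5, the most of any pair, with a median of 0.44 over the 10 probes, and 16 mice in common. Over them the deviations in the Cg and in the BLA correlated at 0.87 for Arc (Spearman's rho 0.68), 0.85 for Dusp1 (rho 0.79), 0.85 for Fos (rho 0.67), 0.62 for Junb (rho 0.48) and 0.56 for Npas4 (rho 0.65). The median over all probes was 0.022. The pair and the 5 genes were chosen after their values were seen, so no test is given. Without the 2 mice farthest from the median in the Cg the correlations were 0.71, 0.71, 0.72, 0.37 and 0.63, so that of Junb rested in part on 2 mice. For Egr1, Egr3 and Fosb they lay between 0.06 and 0.32 over all 16 mice.
Of the 16 mice, the 5 farthest from their group mean for Arc were the same in both regions. Arc in HAB mouse 09 was above its group mean by 1.08 in the Cg and 1.05 in the BLA on the log2 scale. NAB mouse 15 was above by 0.87 and 1.07, and LAB mouse 03 by 0.59 and 0.73. HAB mouse 17 had deviations of -0.64 and -0.70, and NAB mouse 02 of -0.67 and -0.72. Fos deviated in the same direction in these 5 mice, by 1.06 and 1.03 in HAB mouse 09, 0.31 and 1.01 in NAB mouse 15, 0.44 and 0.55 in LAB mouse 03, -0.78 and -1.14 in HAB mouse 17 and -0.83 and -1.26 in NAB mouse 02. HAB and NAB mice were found among both the high and the low ones.
In the CeA of these mice the Arc deviation was 0.29 in HAB mouse 09, 0.04 in NAB mouse 15, 0.15 in LAB mouse 03, -0.13 in HAB mouse 17 and 0.02 in NAB mouse 02, and the Fos deviation of HAB mouse 17 was 0.60 against -1.14 in its BLA. Over the 13 mice with both regions, the CeA and the BLA correlated at 0.44 for Arc, 0.24 for Fos and 0.18 for Dusp1, and the Cg and the CeA at 0.63, 0.15 and 0.17. The Cg and the CeA correlated at 0.80 for Egr1 (rho 0.79), 0.69 for Npas4 and 0.46 for Junb, with a median of 0.42 over the 10 probes, 3 of them over 0.5, beside 0.16 over all probes. Whether these correlations differ from those of the Cg with the BLA was not tested. Of 16 mice with at least 3 regions, Fos lay above the group mean in all regions of 4 mice and below it in all of 2, and Arc in all of 2 and all of 2. Arrays were tied to a mouse by the numbers in the labels alone, and these name 21 mice (6 HAB, 7 NAB and 8 LAB), which is more NAB and LAB mice than the methods describe for these arrays. Which arrays share a mouse could not be checked further, and the correlations between regions and the values without a mouse rest on these numbers.

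**Figure D5:**
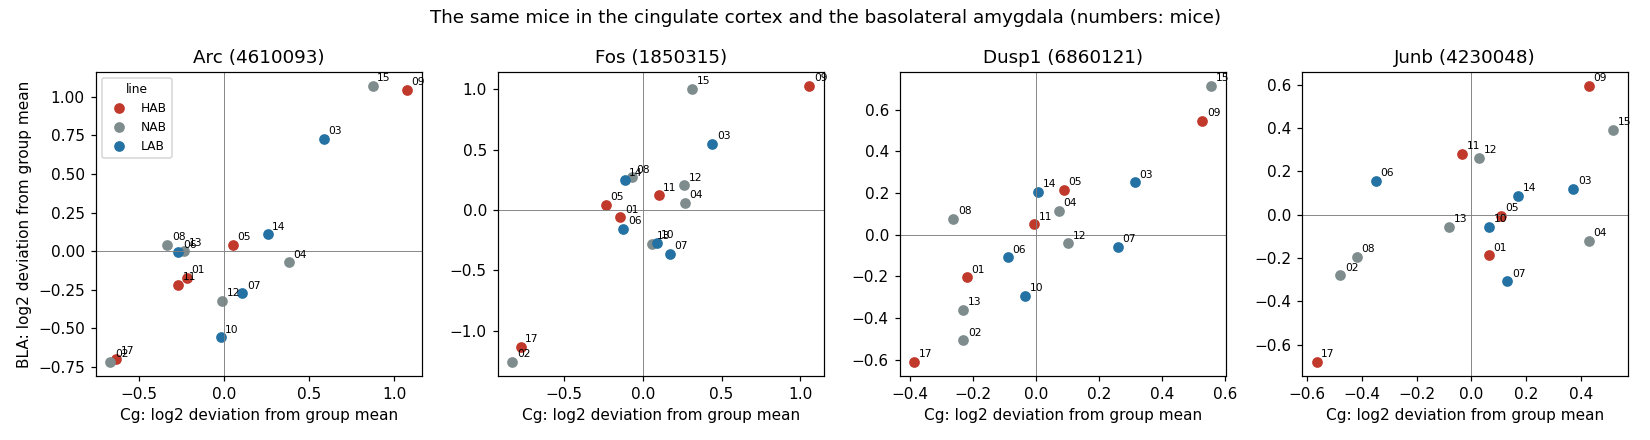
Deviation from the group mean (log2) in the Cg (x axes) and the BLA (y axes) of the same 16 mice for Arc, Fos, Dusp1 and Junb, coloured by line. The 5 mice with the widest Arc deviations lie at the ends of both axes, with r of 0.87, 0.85, 0.85 and 0.62.

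Outside the 10 genes, the probes whose within-group deviations were most like the mean of the members were those of Egr4 (r = 0.72 over 75 arrays), a further EGR factor, Smad2 (0.64), a transducer of TGF-beta signals, Ier5l (0.63), Rnf168 (0.63), a ubiquitin ligase, Tnfrsf25 (0.63), Mobp (0.61), a myelin gene that is also one of the oligodendrocyte markers, Fbxo30 (0.60), Sap30 (0.59), a subunit of a histone deacetylase complex, Hsph1 (0.58), a heat shock protein, and Per2 (0.58), a clock gene. The most negative were 2 probes of Cog1 (-0.54 and -0.52), Lrrc29 (-0.52), Gm11696 (-0.51) and Rnf214 (-0.49). Rnf168 lay above background in 29 and Lrrc29 in 16 of the 75 arrays, so their deviations are mostly those of values below background. Over all probes the median was 0.11 with a 5th and 95th percentile of -0.19 and 0.38. The mean of the members correlated with the share of an array's probes above background at 0.19, with the mean of the oligodendrocyte markers at 0.48, of the microglial markers at 0.45, of the basolateral and cortical markers at 0.44, of the red cell markers at 0.40 and of the markers of all neurons at 0.14.
A list of 48 other genes induced quickly by activity, stress or growth factors had 33 genes tested with 40 probes. Of these, 14 probes lay above the 95th percentile of all probes in their correlation with the members, among them Egr4, Dusp6 (0.57) and Dusp4 (0.51), phosphatases of MAP kinases like Dusp1, Klf2 (0.55), Csrnp1 (0.54) and Ccn2 (0.51). The median correlation was 0.30 for this list, 0.15 for 26 probes of late-response, secreted and synaptic genes, of which 3 passed that percentile, and 0.12 for 53 probes of the kinases, transcription factors and coactivators upstream.
Between the lines in the CeA these lists held few calls. Of 35 probes of the other induced genes 0, 0 and 1 were called in HAB vs. LAB, HAB vs. NAB and NAB vs. LAB mice, the 1 being Srxn1 (630731), which encodes an antioxidant enzyme, lower in NAB than in LAB mice by 0.40 on the log2 scale (log2 difference -0.40, adjusted p = 0.0380). Its intensity was 73.7 ± 3.97 in NAB mice (n = 6) and 97.7 ± 13.0 in LAB mice (n = 5). The list's medians were 0.04, 0.11 and -0.09, beside -0.01, 0.07 and -0.08 over all probes. Of 20 probes of late-response genes 0 were called in each comparison. Of 49 probes of upstream genes, 1 of 3 probes of Crtc3, a coactivator of CREB, was called in HAB vs. NAB (+0.75, adjusted p = 0.0133) and NAB vs. LAB mice (-0.70, adjusted p = 0.0316). Its intensity was 28.4 ± 1.20 in HAB mice (n = 6), 17.4 ± 5.24 in NAB mice (n = 6) and 27.8 ± 5.14 in LAB mice (n = 5), the NAB mice being the low group.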

How the data were processed

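Expression was measured on 75 arrays of 78 labelled, since 3 DG arrays, of HAB mice 05 and 09 and LAB mouse 06, held no values. The deposited values are normalised intensities on a linear scale. The authors summarised beads in BeadStudio and normalised arrays with QSpline, with versions and background treatment not given in the sources used here. A table before normalisation was not used, because its 156 columns match no sample label. Columns were matched to samples by title, and probes to genes through the platform annotation, updated by Entrez number.

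The log2 intensities were fitted with limma 3.58.1 in R 4.3.3 (lmFit, eBayes), by line within each region and jointly over all 15 groups with each mouse treated as a random effect (block, consensus correlation 0.0142), with Benjamini-Hochberg adjustment over all probes tested and a threshold of 0.05. The mouse numbers of the labels pair arrays across regions, though they name more NAB and LAB mice than the methods describe. The filter on dim probes left 18274 (Cg), 17974 (CeA), 18442 (PVN), 18425 (BLA), 18664 (DG) and, for any region, 22083 probes. Arrays of a group correlated at 0.945 to 0.981, and 29.9% to 42.9% of an array's probes lay above background. Scripts were tested on simulated data. The number of arrays limits the precision. Within a region, with 1 array for each mouse, p-values measure the spread between mice. In the joint fit the correlation of 0.0142 treats arrays of a mouse as nearly independent, so its p-values measure mostly the spread between arrays.

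All member probes were named, together with the 10 probes most like the mean of the 8 member probes tested in every region and the 5 most unlike. Genes of the other induced, late-response and upstream lists called in the CeA were named too. The members and lists were chosen with earlier results of these data known.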

Additional observations from a re-analysis of the deposited data

Results flagged for a closer look

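In 7 of 120 sets of 5 or 6 arrays of a probe (5.83%), 1 array stood far from the others of its group, and chance alone gives about 1 in 20. Fos in the Cg of NAB mouse 02 was at 4.19, the others lying between 4.94 and 5.33. Egr3 100870035 in the BLA of the same mouse was at 7.38, the others between 7.75 and 7.91. Junb in the CeA of NAB mouse 08 was at 5.41, the others between 6.01 and 6.30. In the PVN, Egr1 of NAB mouse 04 was at 6.61 (others 5.03 to 5.46) and Egr3 100870035 of HAB mouse 09 at 5.72 (others 3.16 to 3.86), and these are the 2 arrays with high Slc17a7. Npas4 of LAB mouse 03 in the PVN was at 1.98 (others 2.76 to 2.88), below background like most PVN arrays, and Fosb 100730706 of LAB mouse 07 was at 3.97 (others 4.41 to 4.57). The log2 levels are given, and the cause was not tested.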

How the results depend on the processing

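Of the region differences called, 1 changed sign, as that of Junb in the DG (+0.26) turned to -0.01 under quantile normalisation. Counts of called member probes that differed from those given above were, leaving out a mouse, 0 to 1 for HAB vs. NAB in the Cg and DG, NAB vs. LAB in the BLA and each of the 3 comparisons averaged over regions. With array weights they were 2 for NAB vs. LAB in the BLA (Fosb 100730706 and Egr3 100870035) and 1 for HAB vs. NAB in the DG (Fos) and for HAB vs. LAB and NAB vs. LAB averaged over regions (Egr3 100870035). With 16 added, or with quantile normalisation, the count was 1 for NAB vs. LAB averaged over regions (Egr3 100870035). Without the 2 PVN arrays of highest Slc17a7, chosen after the data had been seen as was the Slc17a7 covariate, it was 1 for NAB vs. LAB in the PVN and 1 each for HAB vs. LAB and NAB vs. LAB averaged over regions. Other settings (median centring, no filter on dim probes, a trend and robust prior, the share above background as a covariate) gave 0 in every line comparison. By region, counts over settings were 7 to 9 in the Cg, 5 to 7 in the CeA, 6 to 7 in the PVN, 7 to 8 in the BLA and 6 to 8 in the DG. Without the mouse as a block, or with each probe's own mouse correlation (chosen after the data had been seen), the joint fit gave the same counts, 0 in the line comparisons and 8, 6, 6, 7 and 8 by region. With that correlation and without HAB mouse 09 or NAB mouse 18 the count was 1 for NAB vs. LAB averaged over regions (Egr3 100870035), and 0 in the other combinations.

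In the CeA 748 of 750 alternative values of 30 differences stayed within 1 within-group SD of the value given, 23 changed sign and none was called (lowest adjusted p 0.121). The other 2 were the dim Egr3 probe with 16 added (-0.15) and Fosb 100730706 in HAB vs. LAB mice with the Slc17a7 covariate (0.37 against 0.06). Counts over all probes moved by over 1.5 times in the CeA for HAB vs. LAB (399, settings 262 to 438) and NAB vs. LAB (472, 231 to 664), in the PVN for HAB vs. LAB (385, 331 to 672) and NAB vs. LAB (312, 253 to 567), in the BLA for HAB vs. NAB (562, 368 to 1280) and NAB vs. LAB (624, 394 to 3168, and 371 to 1520 leaving out a mouse), in the DG for HAB vs. NAB (123, 103 to 405), NAB vs. LAB (117, 101 to 603) and, leaving out a mouse, HAB vs. LAB (142, 54 to 165), HAB vs. NAB (70 to 106) and NAB vs. LAB (74 to 96), and averaged over regions for HAB vs. NAB (1378, 1260 to 2349) and NAB vs. LAB (2621, 2114 to 3952). The 3 interactions (4, 6 and 5) ran from 3 to 10, 1 to 12 and 3 to 15, and leaving out a mouse from 2 to 9, 1 to 10 and 2 to 24. The median of all probes was -0.13 for NAB vs. LAB in the PVN and near 0 once centred. Dim probes (Npas4, Fosb 1940142, Egr3 6940128) are limited by background, and the DG by 3 arrays a line.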

Other observations

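Averaged over the 5 regions, some probes of the 3 lists of related genes were called between lines in the joint limma fit, beside 7.17% (HAB vs. LAB), 6.24% (HAB vs. NAB) and 11.9% (NAB vs. LAB) of all probes. In that order the counts were 2, 2 and 4 of 40 probes of other induced genes, 3, 0 and 2 of 26 of late-response genes and 1, 4 and 4 of 53 of upstream genes. With each probe's own mouse correlation, a fit chosen after the data had been seen, the counts were 3, 2 and 5, 2, 1 and 2, and 3, 3 and 7, and 3 of the calls named here were lost (Rasgrp1 and Spry4 in HAB vs. LAB and Hdac4 in HAB vs. NAB mice). Jun, the AP-1 partner of Fos, was lower in NAB than in both other lines (HAB minus NAB 0.39, SE 0.06, adjusted p = 2.18e-06, and NAB minus LAB -0.38, adjusted p = 4.80e-06). Sik1, a kinase that restrains CREB coactivators, was higher in HAB than in NAB mice (0.51, adjusted p = 0.00646), and Jund was lower in NAB than in LAB mice (-0.20, adjusted p = 0.0425). Of 3 Srxn1 probes 2 were lower in NAB than in LAB mice (-0.23 and -0.32), and 1 of these was lower in HAB than in LAB mice (-0.26), as was Spry4 (-0.18).

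Among late-response genes, each with 1 of 2 probes called, Syt4, a synaptotagmin of dense-core vesicles, was lower in LAB mice (HAB minus LAB 0.41, NAB minus LAB 0.46), and Scg2, a granin of the same vesicles, was higher in LAB mice (HAB minus LAB -0.36, NAB minus LAB -0.54). Rasgrp1, an activator of Ras, was higher in HAB than in LAB mice (0.24, adjusted p = 0.0357), but not with its own mouse correlation (0.29, adjusted p = 0.0698). Among upstream genes, 1 of 3 Crtc3 probes was lower in NAB mice (HAB minus NAB 0.53, NAB minus LAB -0.57), as were Hdac4 (0.20, adjusted p = 0.0472, and -0.31) and Map2k2 (0.18 and -0.19). Of 7 Camk2d probes 1 was lower in HAB than in NAB mice (-0.23), and 1 of 3 Mef2c probes was lower in LAB mice (HAB minus LAB 1.98, NAB minus LAB 1.55). Whether the lines differ in sequence under these probes was not examined. The paper raises such differences as a possible reason for its array result on Stx3.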
